A study of Drosophila melanogaster with 4 samples.

Results

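The salivary gland of the Drosophila melanogaster larva makes a glue that fixes the puparium to its support. The glue is a mixture of secreted proteins, among them heavily O-glycosylated mucins, that the gland stores in granules during the third instar and expels at pupariation. Its genes, the Sgs genes, are switched on in the gland by an early ecdysone signal together with the gland's own transcription factors, and are switched off again by the strong ecdysone pulse before metamorphosis. The new-glue (ng) genes lie beside Sgs4 on the X chromosome and are also expressed in the larval salivary gland.

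The genes described here were chosen by name: Sgs1, Sgs3, Sgs4, Sgs5, Sgs5bis, Sgs7, Sgs8, ng1, ng2 and ng3. They are 10 of the 12116 genes of the deposited table. The table gives 9 of them under these symbols and Sgs5bis as CG7587, and the FlyBase identifier FBgn0038523 links both names. The mutant larvae, hsromega66, came from a stock homozygous for the hsromega66 allele of Hsromega, a gene for long noncoding RNAs whose nuclear transcripts organise the omega speckles. The control larvae were Oregon R+, a wild-type stock. All were whole wandering larvae of the third instar with no treatment named in the labels, and each genotype had 2 total RNA libraries of 5 larvae each. The labels do not say whether the stocks shared a genetic background, so the allele and the rest of the stock cannot be told apart.

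The table holds 1 pooled value per transcript and genotype, in FPKM, that is, fragments scaled by transcript length and by the size of the library. There is therefore no spread between libraries to print, and the depth of the libraries is unknown. The words rose and fell are kept for genes with a q-value of at most 0.05 in the authors' deposited table, where q is the p-value adjusted over all 21529 transcripts. Log2 ratios are of FPKM + 1 in hsromega66 over control unless said otherwise, and this scale understates changes of genes near 0. The median log2 ratio over all genes was -0.01. The mutated gene, lncRNA:Hsromega, was listed at 0.290 FPKM in hsromega66 and 232 FPKM in control larvae, so the values go with the labels. The lowest p-value over its listed transcripts in the authors' deposited table was 0.0903 and the lowest q-value 0.998. In RNA from whole larvae, less gland tissue and less glue RNA per gland cell cannot be told apart.

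The glue genes did not share 1 direction. Sgs5bis rose 12.6-fold in hsromega66 larvae, Sgs1 fell 2.92-fold, and the other 8 genes did not pass the threshold. By FPKM, 6 of the 10 members lay lower and 4 higher in hsromega66, with a median log2 ratio of -0.43. Of all genes, 51.8% had a log2 ratio below 0, so the count of 6 is close to the share over the table. Across all genes of the table, 2.31% passed the threshold, with 1.4% of all genes higher and 0.908% lower in hsromega66. At a q of at most 0.1, 3 members passed against 2.83% of all genes, and at a q of at most 0.01, 2 members against 1.8%. In the authors' deposited table, 4 members had p-values of 0.05 or less before adjustment, which were Sgs1, Sgs3, Sgs4 and Sgs5bis, and so did 7.82% of all genes. A log2 ratio of at least 1 in size was found for 5 of the 10 members, against 5.93% of all genes. It was 1 or more in 2 members and 3.35% of all genes, and -1 or less in 3 members and 2.58% of all genes. Among genes that reached 100 FPKM in either genotype, 3 of 7 members and 15.8% of 987 genes had a ratio of that size, with 8.51% of the 987 genes at 1 or more and 7.29% at -1 or less.

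**Figure D1:**
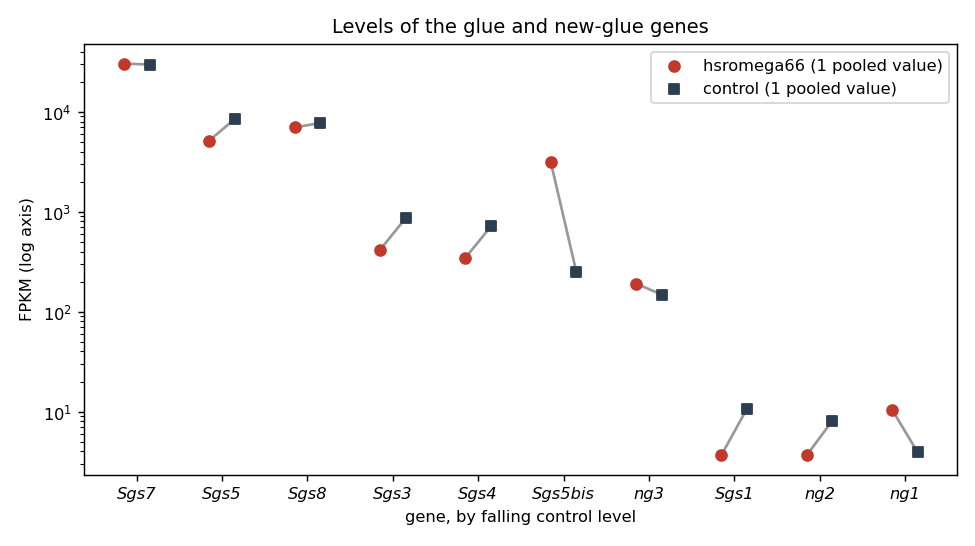
FPKM of each glue and new-glue gene on a log axis, with 1 pooled value for hsromega66 (red circle, left) and 1 for control (dark square, right) joined by a line. Sgs7 stands at the top in both genotypes, and Sgs5bis is at 3163 FPKM in hsromega66 and 251 FPKM in control.

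The highest of all 12116 genes in both genotypes was Sgs7, which encodes a small glue protein of 74 residues. It was listed at 30487 FPKM in hsromega66 and 29798 FPKM in control larvae, a log2 ratio of 0.03, and the p-value in the authors' deposited table was 0.935. The genes next to it in the hsromega66 ranking were the mitochondrial ribosomal RNA mt:lrRNA (28809 and 17481 FPKM in hsromega66 and control), the odorant-binding protein gene Obp99b (22615 and 27883 FPKM) and the cuticle protein gene Lcp4 (15264 and 21221 FPKM). The small RNA genes snRNA:7SKa (13192 FPKM in hsromega66 and 12120.0 FPKM in control) and snoRNA:Psi18S-1820 (9828 and 14201 FPKM) completed the highest 5 genes of each genotype. Sgs8, which encodes a protein of 75 residues related to that of Sgs7, was listed at 7000.1 FPKM in hsromega66 and 7743 FPKM in control. Its log2 ratio was -0.15, with p = 0.670 in the authors' deposited table. Sgs8 ranked 20 in hsromega66 and 22 in control. Between genotypes, the pooled values of Sgs7 and of Sgs8 thus lay close together. A p-value that misses the threshold does not show that they were equal. The values of Sgs5, which is near Sgs8 but not Sgs7 in level, lay further apart.

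Sgs3 lies in the same group of genes as Sgs7 and Sgs8 but had another ratio. It encodes a mucin-like glue protein of 307 residues, rich in threonine repeats. Sgs3 was listed at 416 FPKM in hsromega66 and 863 FPKM in control, with a log2 ratio of -1.05. Its p-value in the authors' deposited table was 0.00115 and its q-value 0.0783, just above the threshold. The FPKM of Sgs7 was 73.3 times that of Sgs3 in hsromega66 larvae and 34.5 times in control larvae. The ratio of Sgs7 to Sgs8 was 4.36 in hsromega66 and 3.85 in control.

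These 3 genes form a cluster on chromosome arm 3L. In dm6 coordinates, Sgs8 lies on the minus strand at chr3L:11508967-11509394, Sgs7 on the plus strand at chr3L:11509861-11510247 and Sgs3 on the plus strand at chr3L:11512221-11513402. Sgs8 and Sgs7 are transcribed away from each other across a gap of 466 bp, and 1973 bp separate Sgs7 from Sgs3. All of them have 2 exons, the first of which is short (67 bp in Sgs8, 63 bp in Sgs7 and 42 bp in Sgs3). Together they summed to 37902 FPKM in hsromega66 and 38405 FPKM in control, which was 81.0% and 79.9% of the glue FPKM.

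Sgs5 and Sgs5bis are neighbours whose values differed in opposite directions. Sgs5bis encodes a protein of 142 residues and is named for Sgs5, which encodes a glue protein of 163 residues. Sgs5bis rose to 3163 FPKM in hsromega66 larvae, against 251 FPKM in control larvae. Its log2 ratio was 3.65, and its q-value of 0.00546 is the smallest in the authors' deposited table, shared by 197 transcripts. Of the 170 genes that rose, Sgs5bis ranked 2 by FPKM in hsromega66, after the spliceosomal RNA gene snRNA:U2:34ABa, and 8 by log2 ratio. It ranked 39 among all genes in hsromega66 and 423 in control.

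Sgs5 was listed at 5166 FPKM in hsromega66 and 8519.8 FPKM in control, a log2 ratio of -0.72. Its p-value in the authors' deposited table was 0.0804 and its q-value 0.998. Sgs5 thus exceeded Sgs5bis in both genotypes, 1.63 times in hsromega66 larvae and 33.9 times in control larvae. The FPKM of the pair summed to 8329 in hsromega66 and 8771 in control, 0.950 of the control value. The gain of Sgs5bis was 2911 FPKM and the difference for Sgs5, hsromega66 minus control, was -3354 FPKM.

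Both lie on the plus strand of 3R, Sgs5bis at chr3R:17594386-17595057 and Sgs5 at chr3R:17595362-17596112, with 304 bp between them. They have the same layout of 3 exons, and the middle exon is 189 bp long in each. The first exon measures 251 bp in Sgs5bis and 298 bp in Sgs5, the last 110 bp and 149 bp. The treatment of reads that could come from either gene is one of the steps not given in the sources used here. Downstream, CG7606 begins 424 bp beyond Sgs5 and was listed at 2871 FPKM in hsromega66 and 1521 FPKM in control. Over its 2 transcripts, the lowest p-value was 0.0037 and the lowest q-value 0.186 in the authors' deposited table. The other genes within 20 kb were sll, which encodes a transporter of the sulfate donor PAPS (9.30 FPKM in hsromega66 and 8.53 FPKM in control), and Edg91 (5.24 and 4.31 FPKM), and both had q-values of 0.998 in the authors' deposited table.

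**Figure D2:**
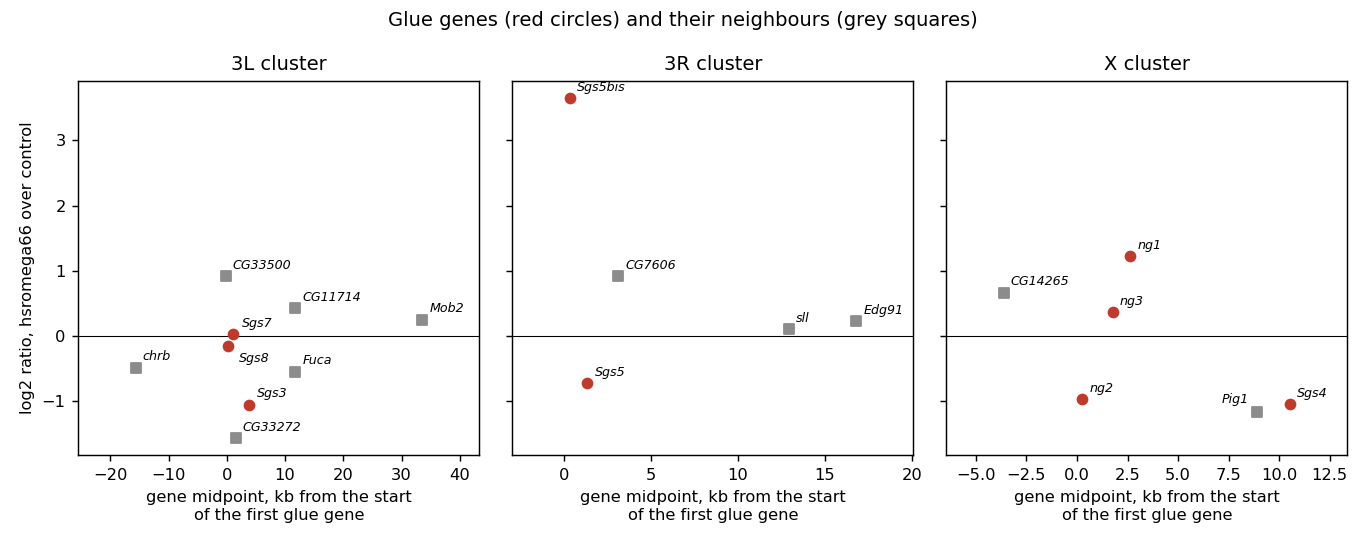
Log2 ratio of hsromega66 over control (vertical axis) against the gene's midpoint in kb from the start of the first glue gene (horizontal axis) in the clusters on 3L, 3R and X; red circles are glue and new-glue genes, grey squares other genes within 20 kb by the annotation, without dnc, which spans the X cluster. Sgs5bis at 3.65 stands apart from its neighbour Sgs5 at -0.72.

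Sgs1 fell. It encodes the longest protein of the set, a mucin of 1286 residues in the annotation, and lies apart from the other members, at chr2L:4937409-4941423 on the plus strand. Sgs1 was listed at 3.67 FPKM in hsromega66 and 10.7 FPKM in control, with a log2 ratio of -1.33 and a q-value of 0.00546 in the authors' deposited table. Among the 110 genes that fell, Sgs1 ranked 83 by log2 ratio. The level was low for a glue gene: Sgs7 stood 8302 times higher per length in hsromega66 and 2781 times higher in control. Sgs1, Sgs3 and Sgs4 carry tandem repeats in their coding sequence, and the counting of reads from repeats is likewise not stated. With a pseudocount of 10 FPKM the log2 ratio of Sgs1 was -0.60. In the authors' deposited Cuffdiff table, 2.31% of all genes passed the threshold and 7.82% had p-values of 0.05 or less before adjustment. None of the 10 listed genes around Sgs1 passed, and 0 had such p-values. These included 3 genes of Jonah serine proteases, Jon25Biii (3770.1 FPKM in hsromega66 and 2354 FPKM in control), Jon25Bii (726 and 1029 FPKM) and Jon25Bi (743 and 1041 FPKM). The others, hoe1, hoe2, mRpL24, betaggt-I, jet, Marcal1 and asRNA:CR43824, had log2 ratios between -0.72 and 0.57.

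Sgs4 and the ng genes share a cluster on the X chromosome. Sgs4, a glue gene known for the chromosome puff at its site, was listed at 346 FPKM in hsromega66 and 715 FPKM in control. Its log2 ratio was -1.04, close to that of Sgs3. In the authors' deposited table, the p-value of Sgs4 was 0.0151 and its q-value 0.529. It is a gene of 1 exon on the plus strand at chrX:3250089-3251040 and encodes 287 residues.

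The ng genes were of lower level, and their values went in both directions. The highest was ng3 (chrX:3241491-3242084, minus strand), at 192 FPKM in hsromega66 and 148 FPKM in control, a log2 ratio of 0.37. ng1 (chrX:3242412-3242934, plus strand) was listed at 10.4 FPKM in hsromega66 and 3.90 FPKM in control, a log2 ratio of 1.22. ng2 (chrX:3240026-3240571, minus strand) was listed at 3.66 FPKM in hsromega66 and 8.11 FPKM in control, a log2 ratio of -0.97. All 3 had q-values of 0.998 in the authors' deposited table, with p-values of 0.592 for ng1, 0.621 for ng2 and 0.761 for ng3. ng1 and ng2 are close copies, and which of them a read belongs to is uncertain. Their sum was 14.1 FPKM in hsromega66 and 12.01 FPKM in control. The values of ng1 and ng2 went in opposite directions, so they partly cancel in the sum. The sum therefore says nothing about how reads were assigned, which was not tested.

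Pig1, another gene of the larval salivary gland, lies 800 bp from Sgs4. It was listed at 31.9 FPKM in hsromega66 and 72.7 FPKM in control, a log2 ratio of -1.17, with p = 0.647 in the authors' deposited table. The uncharacterised gene CG14265, 3340 bp from ng2, was listed at 155 FPKM in hsromega66 and 97.2 FPKM in control (p = 0.631 in the authors' deposited table). The long gene dnc, a cAMP phosphodiesterase gene that spans the cluster, stood at 11.9 FPKM in hsromega66 and 15.7 FPKM in control. The files give all of these genes 1 merged locus, so the neighbours chosen by it include 6 genes that the annotation does not place within 20 kb. These were N, CG18508, Fcp3C, CG3939, lncRNA:CR44886 and CG10793, with log2 ratios between -1.29 and 0.35. Of all 30 neighbours of the members, none passed the threshold in the authors' deposited Cuffdiff table, and 1, CG7606, had a p-value of 0.05 or less before adjustment. The shares over all genes were 2.31% and 7.82%.

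Within the 3L cluster, CG33272 lies between Sgs7 and Sgs3, 76 bp from Sgs7. Beside the cluster lies CG33500, 64 bp from Sgs8. CG33272 was listed at 0.447 FPKM in hsromega66 and 3.29 FPKM in control, and CG33500 at 0.886 FPKM in hsromega66 and at 0 in control. Further out, chrb (12.04 FPKM in hsromega66 and 17.2 FPKM in control), Mob2 (41.5 and 34.7 FPKM) and the overlapping Fuca (15.1 and 22.5 FPKM) and CG11714 (4.05 and 2.74 FPKM) had log2 ratios between -0.55 and 0.43. The merged locus adds mir-4968 (12.002 and 5.77 FPKM) and CG7394 (8.74 and 12.99 FPKM), which lie beyond 20 kb.

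**Figure D3:**
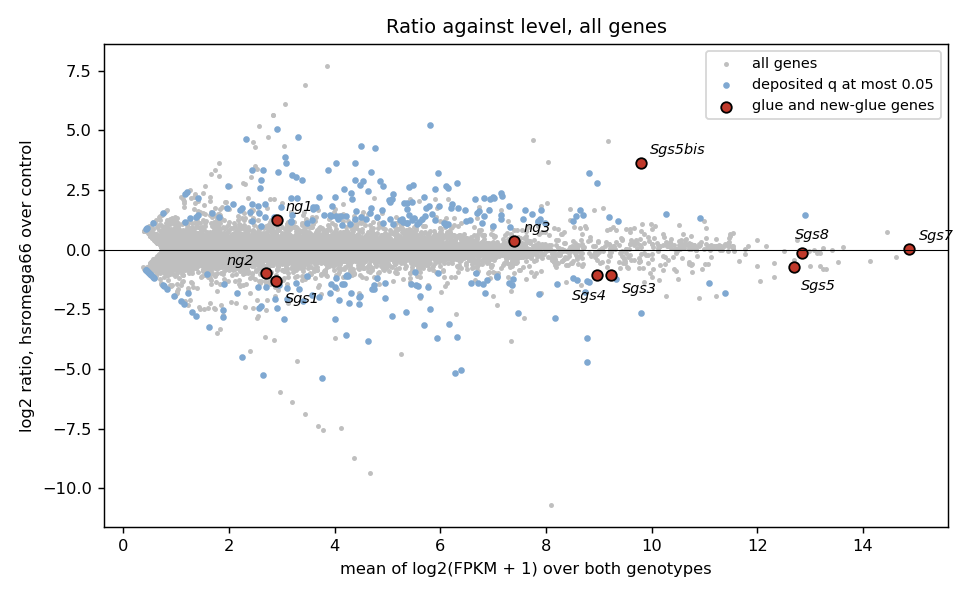
Log2 ratio of hsromega66 over control (vertical axis) against the mean of log2(FPKM + 1) over both genotypes (horizontal axis) for all 12116 genes in grey, genes with a deposited q of at most 0.05 in blue and the glue and new-glue genes in red. Sgs7, Sgs8 and Sgs5 lie at the right edge near or below 0, and Sgs5bis lies at 3.65 among genes of high level.

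As a whole the set held a like share of the table in both genotypes. The 10 members summed to 46786 FPKM in hsromega66 and 48062 FPKM in control, which was 5.02% and 4.95% of the summed FPKM of each genotype. Sgs7, Sgs8 and Sgs5 made up 91.2% of the glue FPKM in hsromega66 and 95.8% in control. Without Sgs7 and Sgs5bis, the other 8 genes summed to 13137 FPKM in hsromega66 and 18012 FPKM in control, a ratio of 0.729. Without Sgs7 alone, the share of the rest of the table was 1.81% in hsromega66 and 1.94% in control, so the direction of the share turned. It also turned with Sgs5bis left out of the glue sum but kept in the table's total, at 4.68% in hsromega66 and 4.92% in control.

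Within the glue FPKM, Sgs5bis took 6.76% in hsromega66 and 0.523% in control, and Sgs5 took 11.04% and 17.7%. Sgs7 took 65.2% in hsromega66 and 62.0% in control, Sgs8 15.0% and 16.1%. Sgs3 took 0.888% in hsromega66 and 1.80% in control, and Sgs4 0.739% and 1.49%. The 3 ng genes together took 0.439% in hsromega66 and 0.333% in control. FPKM is scaled by length, and these glue transcripts are short (321 bp for Sgs7 against 3950 bp for Sgs1 after splicing). Weighted by transcript length, as a stand-in for fragments, the set held 1.67% of the total in hsromega66 and 1.81% in control.

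**Figure D4:**
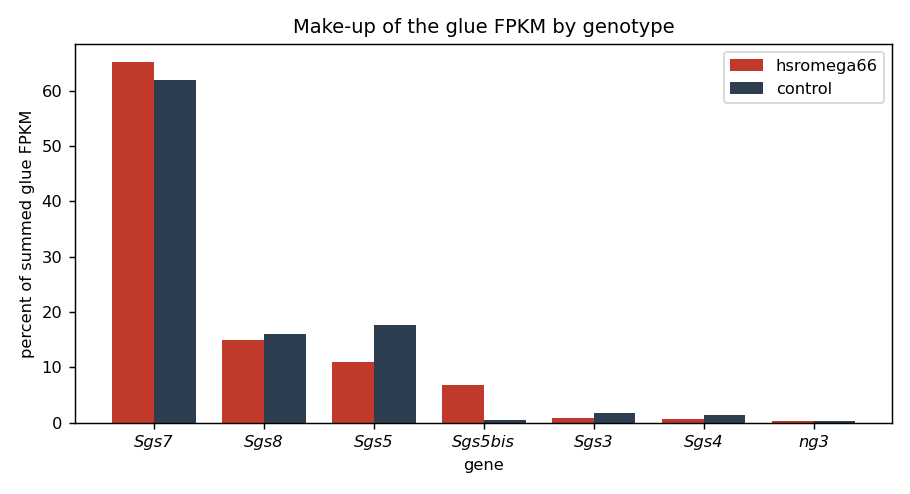
Percent of the summed FPKM of the 10 glue and new-glue genes taken by each of 7 genes, with hsromega66 in red (left bar) and control in dark blue (right bar); the 3 genes not drawn each took under the share of ng3. Sgs7 takes 65.2% in hsromega66 and 62.0% in control, and Sgs5bis 6.76% and 0.523%.

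Genes that act upstream and downstream of glue synthesis were set beside the members. The RNA came from whole larvae, so the values of these lists do not give levels in the salivary gland alone. Of 14 measured genes for regulators of glue transcription or nuclear receptors of the ecdysone response, none passed the threshold in the authors' deposited Cuffdiff table. Unadjusted, 2 reached p of 0.05 or less there. Over all genes, 2.31% passed and 7.82% reached that p, so a short list with none passing says little. The list's median log2 ratio was 0.08, and -0.00781 among its genes of at least 5 FPKM in either genotype. The forkhead factor gene fkh, whose product binds glue gene control regions, was listed at 3.82 FPKM in hsromega66 and 6.21 FPKM in control, with the list's most extreme log2 ratio, -0.58, and p = 0.0262 in the authors' deposited table. br, the Broad gene required for glue gene expression, stood at 112 FPKM in hsromega66 and 136 FPKM in control, with a lowest p of 0.0398 over its transcripts in the authors' deposited table. sage, a transcription factor gene of the salivary gland, stood at 23.4 FPKM in hsromega66 and 30.3 FPKM in control, and the ecdysone receptor gene EcR at 45.5 and 51.0 FPKM. These 4 are among the 5 regulators with lower values in hsromega66, while 9 had higher values, up to a log2 ratio of 0.52 for the nuclear receptor gene Hr4 (6.68 FPKM in hsromega66 and 4.37 FPKM in control). Of all genes, 51.8% had log2 ratios below 0. usp, the partner of EcR, stood at 22.02 FPKM in hsromega66 and 18.2 FPKM in control.

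Of 9 measured genes of a list of other salivary gland genes, none passed in the deposited Cuffdiff table, against 2.31% of all genes. Unadjusted, 1 reached p of 0.05 or less there, against 7.82% of all genes. This was Papss, which makes the sulfate donor PAPS, at 11.3 FPKM in hsromega66 and 22.3 FPKM in control, with a lowest q of 0.0998 in the authors' deposited table. Eig71Ee, an abundant gene of the larval salivary gland, was listed at 907 FPKM in hsromega66 and 1423 FPKM in control, with p = 0.0670 in the authors' deposited table. The prolyl hydroxylase genes PH4alphaSG1 (2.12 FPKM in hsromega66 and 1.89 FPKM in control) and PH4alphaSG2 (4.41 and 3.89 FPKM) had log2 ratios of 0.11 and 0.15. The list's median was 0.02, and -0.65 among its genes of at least 5 FPKM in either genotype. Those few genes were Pig1, Papss and Eig71Ee, all lower in hsromega66, and ps and sano, with log2 ratios of 0.02 and 0.22.

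Genes for glycosylation, export and exocytosis of glue proteins had median log2 ratios near 0 in whole larvae. Whether their levels in the gland differed was not tested. The list of mucin glycosylation and cargo export had a median log2 ratio of 0.07. None of its 18 genes passed in the deposited Cuffdiff table, against 2.31% of all genes. Unadjusted, 1 reached p of 0.05 or less there, against 7.82% of all genes. This was the glycosyltransferase gene Pgant8, at 4.26 FPKM in hsromega66 and 7.56 FPKM in control. Tango1, which loads large cargo at the exit sites of the endoplasmic reticulum, stood at 32.0 FPKM in hsromega66 and 28.3 FPKM in control. The list of granule exocytosis had a median of 0.04, and none of its 18 genes passed in the deposited Cuffdiff table. At p of 0.05 or less unadjusted there was again 1 gene, beside the same shares of all genes. This was the calcium sensor gene Syt1, at 35.8 FPKM in hsromega66 and 22.8 FPKM in control, with a lowest q of 0.232 in the authors' deposited table. The 8 exocyst subunit genes Sec3, Sec5, Sec6, Sec8, Sec10, Sec15, Exo70 and Exo84 had log2 ratios between -0.09 and 0.15.

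Of the Eig71E genes, which belong to a late puff of the ecdysone response, 4 of 11 could be matched, Eig71Ee among them. Eig71Ea was listed at 17.5 FPKM in hsromega66 and 0.792 FPKM in control, Eig71Eb at 9.17 and 0.604 FPKM, and Eig71Eg at 28.8 and 14.2 FPKM. None passed the threshold in the authors' deposited Cuffdiff table, against 2.31% of all genes, and the lowest q of the list was 0.536. Of the 4 genes, 3 reached p of 0.05 or less unadjusted there, against 7.82% of all genes. Every listed transcript reached 0.669 FPKM in at least 1 genotype, and Eig71Eb lay under this level in control. Eig71Eb is thus listed only through its hsromega66 value, so the count of 3 carries no weight for the group.

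**Figure D5:**
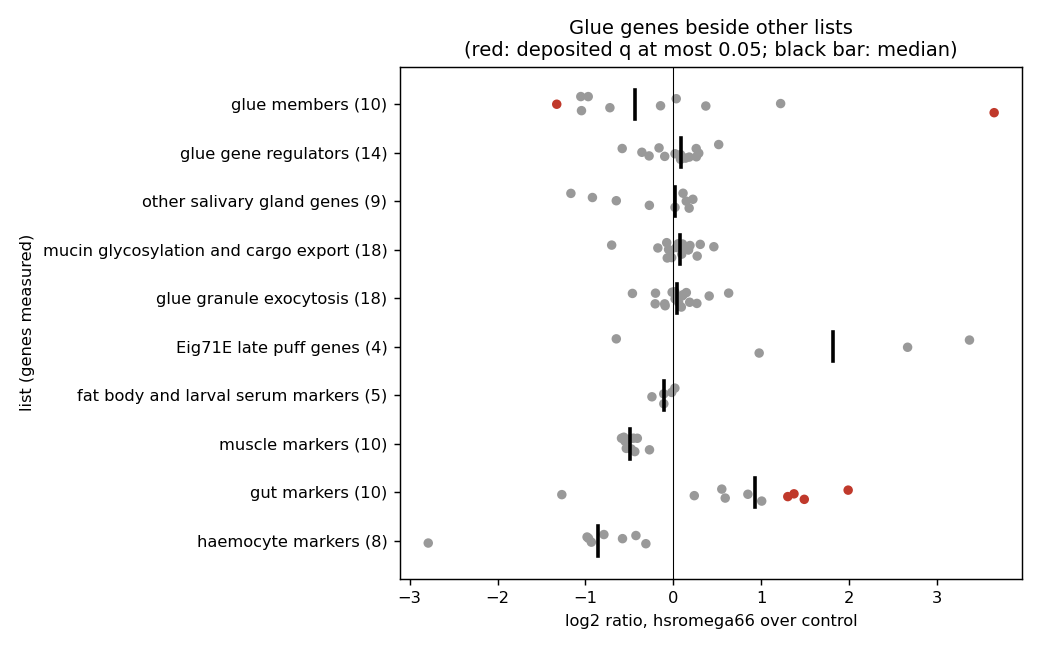
Log2 ratio of hsromega66 over control (horizontal axis) of each gene in the glue set and in 9 other lists (rows, with the number of genes measured), with red points for a deposited q of at most 0.05 and a black bar at the list's median. The glue genes spread from -1.33 to 3.65, with Sgs5bis at the upper end, and the lists of regulators, glycosylation and exocytosis lie close around 0. Other lists also spread widely: Eig71E genes from -0.65 to 3.37, gut markers from -1.27 to 1.99 and haemocyte markers from -2.79 to -0.31.

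Markers of other larval tissues also differed between the pooled values, and their part in the glue values was not tested. The 10 muscle markers all lay lower in hsromega66, with a median log2 ratio of -0.49 and a summed level of 7249 FPKM in hsromega66 and 10311 FPKM in control. The 8 haemocyte markers all lay lower, with a median of -0.86 and sums of 224 and 386 FPKM, and PPO3, the most extreme, stood at 1.23 FPKM in hsromega66 and 14.4 FPKM in control. None of either list passed in the deposited Cuffdiff table, and 0 muscle and 4 haemocyte markers reached p of 0.05 or less unadjusted. Over all genes, 2.31% passed, 7.82% reached that p and 51.8% had log2 ratios below 0. Of 10 gut markers 4 rose, against 1.4% of all genes. They were led by Amy-p (87.6 FPKM in hsromega66 and 21.3 FPKM in control), followed by Jon99Fii, Mal-A1 and alphaTry. The gut list had a median of 0.93 and sums of 10879 and 7472 FPKM. Within the list, the other direction was seen in 1 gut marker, Jon99Ciii, at 730.0 FPKM in hsromega66 and 1760.1 FPKM in control. Its log2 ratio was -1.27, with a q-value of 0.0563 in the authors' deposited table. The Jonah genes near Sgs1, which are not in the list, went both ways. Their log2 ratios were 0.68 for Jon25Biii, -0.50 for Jon25Bii and -0.49 for Jon25Bi. Jon99Fii stood at 2062 FPKM in hsromega66 and 734 FPKM in control, Mal-A1 at 44.0 and 16.4 FPKM, and alphaTry at 369 and 149 FPKM. The 5 fat body and serum protein genes had a median of -0.11 and sums of 32596 FPKM in hsromega66 and 35255 FPKM in control. The most extreme muscle marker was Act57B (1689 FPKM in hsromega66 and 2543 FPKM in control), and that of the fat body list Lsp1alpha (6915 and 8187 FPKM). No marker of these lists was listed at 0 in either genotype.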

How the data were processed

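Total RNA of 5 whole larvae per library went through a stranded, ribosomal RNA depleting kit and was read in 100 bp pairs, per the labels' protocols. The submitters' processing notes name TopHat, Bowtie, Cufflinks, Cuffdiff 2.1.1 and build dm6, and whether counting used strand is among the steps not given in the sources used here. FPKM per transcript, pooled to 1 value per genotype, is what the authors deposited, per the file headers. The deposited log2 ratios match the FPKM columns within 0.0001, and the deposited q-values equal the p-values after Benjamini-Hochberg adjustment within 1e-06. No count of reads was used, so depth per library is unknown and limits the precision of low genes by an amount that cannot be given. Every transcript reached 0.669 FPKM in 1 genotype.

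FPKM was summed over the transcripts of a gene; each of the 10 members had 1. Ratios used a pseudocount of 1 FPKM. With pooled values no test of separate libraries was run, and p- and q-values are the authors' own. The labels do not tie the libraries to separate cultures, so the p-values may measure technical spread. Positions and exons come from Ensembl 115 (BDGP6.54, the dm6 assembly); 12037 of 12116 gene identifiers matched. Named genes are the members, listed genes within 20 kb by the files' loci, the 5 highest genes, Hsromega, and of each list the called genes and the most extreme at 1 FPKM or more; other list genes were picked with their values in view. The members and lists were chosen with earlier results of these data known. The code was checked on simulated ratios with assigned p-values, without noise and without a pseudocount, which says nothing about the reliability of the results. Python 3.11.15, numpy 2.4.6, pandas 2.3.3 and matplotlib 3.10.9 were used. Alternatives were other pseudocounts, scalings, filters and thresholds.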

Additional observations from a re-analysis of the deposited data

How the results depend on the processing

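Each member's log2 ratio kept its direction under scaling without the glue genes and under centring. These are small shifts, of about 0.06 for the scaling and by a median of -0.01 for the centring. Pseudocounts of 0.1 and 10 FPKM change the size of a ratio but cannot change its direction. Taking the most abundant transcript alone changes nothing, as each of the 10 members had 1. The ratios of ng1 and ng2 moved by more than 0.1, to 1.39 and -1.13 with a pseudocount of 0.1 and to 0.55 and -0.41 with 10, and that of Sgs1 was -1.52 and -0.60. The median of the members, -0.43, was -0.28 with a pseudocount of 10 and -0.72 without Sgs5bis, an alternative chosen after seeing the data. The 2 called members became 4 at an unadjusted p of at most 0.05. Without Sgs5bis, itself 1 of the 2, the count is 1 by construction, which tests nothing. At a q of at most 0.1, or with q recomputed over transcripts of at least 5 FPKM, 3 were called, with Sgs3 added (q = 0.0783 as deposited and 0.0425 recomputed). The log2 ratio of the set's share, 0.02, changed sign to -0.10 without Sgs7, to -0.0268 without small structural RNA genes, to -0.12 with FPKM weighted by transcript length and to -0.0723 without Sgs5bis in the glue sum alone, so no direction can be given for the share. With genes of at least 5 FPKM, a filter chosen after seeing the data, the median of the regulators was -0.00781 and that of the other salivary gland genes -0.65. No paired analysis was possible because the table holds 1 pooled value per genotype, and leaving out each replicate was not run for the same reason.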

Other observations

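Ratios of like size had unlike p-values in the authors' deposited Cuffdiff table. Sgs3 and Sgs4 had FPKM ratios, hsromega66 over control, of 0.481 and 0.484, with deposited Cuffdiff p-values of 0.00115 and 0.0151. Pig1, which shares a merged locus with Sgs4, had a log2 ratio of -1.17 and a deposited Cuffdiff p-value of 0.647. ng2, in the same locus, had an FPKM ratio of 0.451 and a deposited Cuffdiff p-value of 0.621.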
